A study of Mus musculus with 12 samples.

Results

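Patterning regulators of other lineages are transcription factor genes that build tissues outside the cerebral cortex, such as heart, limb, kidney, endoderm, spinal cord and midbrain. The 45 genes described here were taken by name from the Pax, Irx, Gata, Tbx, Nkx, En, Phox, Tlx, Evx, Lmx, Isl, Lhx, Hand and Foxa families, with *Six2* and *Six6*, out of 21911 protein-coding genes of the mouse annotation. For each gene the window ran from 5 kb upstream of its transcription start site (TSS) to its end, in mm10 coordinates. The values read in each list of peaks were the covered length (the bp of the window under peaks) and the percentile of the strongest peak (its fold enrichment over input ranked within its own list, where 100 is the highest).

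The samples came from the neocortex of *Gad67-GFP* heterozygous pups at postnatal day 2. The line had a mixed background and was crossed out to CD-1 mice. Dissociated cells were sorted into GFP+ cortical interneurons (CINs) and GFP- cells (non-CINs), and each sample pooled tissue of 2 to 3 litters. Native ChIP, in which unfixed chromatin was cut with MNase, was done for acetylation (H3K27ac) and trimethylation (H3K27me3) of histone H3 lysine 27 in 2 replicates of each population. This gave 8 peak lists, 4 for each mark. GFP marks cells that use the Gad67 promoter, so CINs of every subtype are pooled, and non-CINs are a mixture rich in glutamatergic neurons and glia. All 4 groups carried the same reporter allele and none was treated.

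Polycomb repressive complex 2 places H3K27me3, characteristically over CpG-rich promoters of developmental transcription factor genes, and the mark keeps the programs of other lineages silent in a differentiated cell. H3K27ac lies at active promoters and enhancers, and a given lysine can carry only acetylation or methylation. In a mixed population a peak shows that enough cells carried a mark, and the share of marked cells cannot be told apart from the level per cell.

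The lists held 46040 to 62505 H3K27ac peaks over 40.8 to 56.3 Mb and 36662 to 45081 H3K27me3 peaks over 34.5 to 49.8 Mb. The number of reads behind them is not in the lists, so depth is unknown and a missing peak means only that none was called. Of 10 CIN marker genes, 9 had H3K27ac in both CIN lists and 3 in both non-CIN lists. Among 5 astrocyte and radial glia markers, the summed H3K27ac covered length was 43372 to 47816 bp in CINs and 71422 to 71691 bp in non-CINs. Against the labels of the sort, 8 pallial neuron markers summed to 14563 to 31948 bp in CINs and 11770 to 12321 bp in non-CINs, with 5 of 8 acetylated in both lists of each. The sum over 6 striatal projection neuron markers was 14160 to 22880 bp in CINs and 7902 to 10358 bp in non-CINs. Microglia, endothelial and pericyte markers also carried H3K27ac in both populations (3 of 5, 2 of 5 and 3 of 7 genes in both lists of each). Of all genes, 59.6% had it in both CIN lists and 58.5% in both non-CIN lists, so these counts do not single out such cells.

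All 45 genes had H3K27me3 in all 4 lists of that mark, against 4618 of all 21911 genes (21.1%). No member escaped the mark in CINs or in non-CINs, whereas 64.8% of all genes had no H3K27me3 peak in either CIN list and 62.4% had none in either non-CIN list. The median covered length over the members was 12814 and 13402 bp in the CIN lists and 12235 and 12835 bp in the non-CIN lists, where the median over all genes was 0 in each. Within each population replicate 2 had the longer median.

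The members' peaks were also among the strongest in the genome. The strongest H3K27me3 peak of a member stood at percentile 98.3 or above in every list, and 42 of the 45 reached percentile 99 in all 4 lists, as did 1.26% of all genes (275). The other 3 were *Irx6*, *Phox2a* and *Lhx3*, whose lowest percentiles were 98.3, 98.9 and 98.9. Ranks below are counted from the strongest peak of a list.

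The mark covered the TSS region and faded to both sides. In the first kilobase downstream of the TSS, H3K27me3 covered 91.2 to 97.4% of the bp of the 45 genes in the 4 lists, and 8.25 to 9.45% of the bp of all genes. From 2 to 3 kb downstream all bp of all 45 genes were covered in all 4 lists. At 20 to 21 kb the share was 31.0 to 39.4%, and at the same distance upstream it was 21.1 to 23.9%. H3K27ac had the opposite profile: it covered 33.0 to 39.3% of the first kilobase in all genes and 0% in the members.

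**Figure D1:**
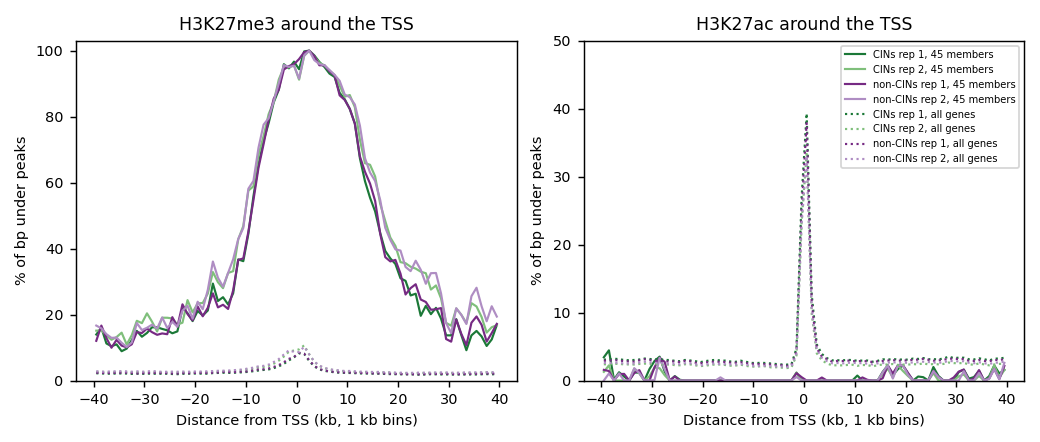
Share of bp under H3K27me3 (left) and H3K27ac (right) peaks in 1 kb bins from 40 kb upstream to 40 kb downstream of the TSS, for the 45 members (solid) and all protein-coding genes (dotted), 1 line per list. The members' H3K27me3 lines reach 100% near the TSS in all 4 lists, and their H3K27ac lines lack the peak at the TSS that all genes show.

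A peak lay over the annotated TSS itself in all 4 H3K27me3 lists in 36 members, and in 4.57% of all genes (1001). The other 9, in which at least 1 list left the TSS bare, were *Irx1*, *Irx2*, *Irx4*, *Six2*, *Tbx3*, *En2*, *Phox2a*, *Lhx3* and *Lhx4*. All 9 had H3K27me3 within 1 kb of the TSS in all 4 lists. *Lhx3*, a regulator of motor neurons and the pituitary, had the least, with 441, 827, 337 and 823 of the 2000 bp around its TSS covered (CIN replicates 1 and 2, then non-CIN replicates 1 and 2, the order used for every set of 4 values).

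At least 95% of the window lay under H3K27me3 in all 4 lists in 20 members and in 0.634% of all genes (139). In 7 members the whole window was covered in every list: *Irx3*, *Six6* (eye and pituitary), *Nkx6-2*, *Tlx1* (spleen), *Evx1* (spinal interneurons), *Isl1* (motor neurons) and *Hand1* (heart). For these the covered length had reached its ceiling, and a difference between populations could not appear in it. The mean share covered ran from 86.5 to 100% over the 6 Irx genes, from 98.8 to 100% over the 3 Nkx genes and from 28.6 to 99.4% over the 8 Tbx genes.

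**Figure D2:**
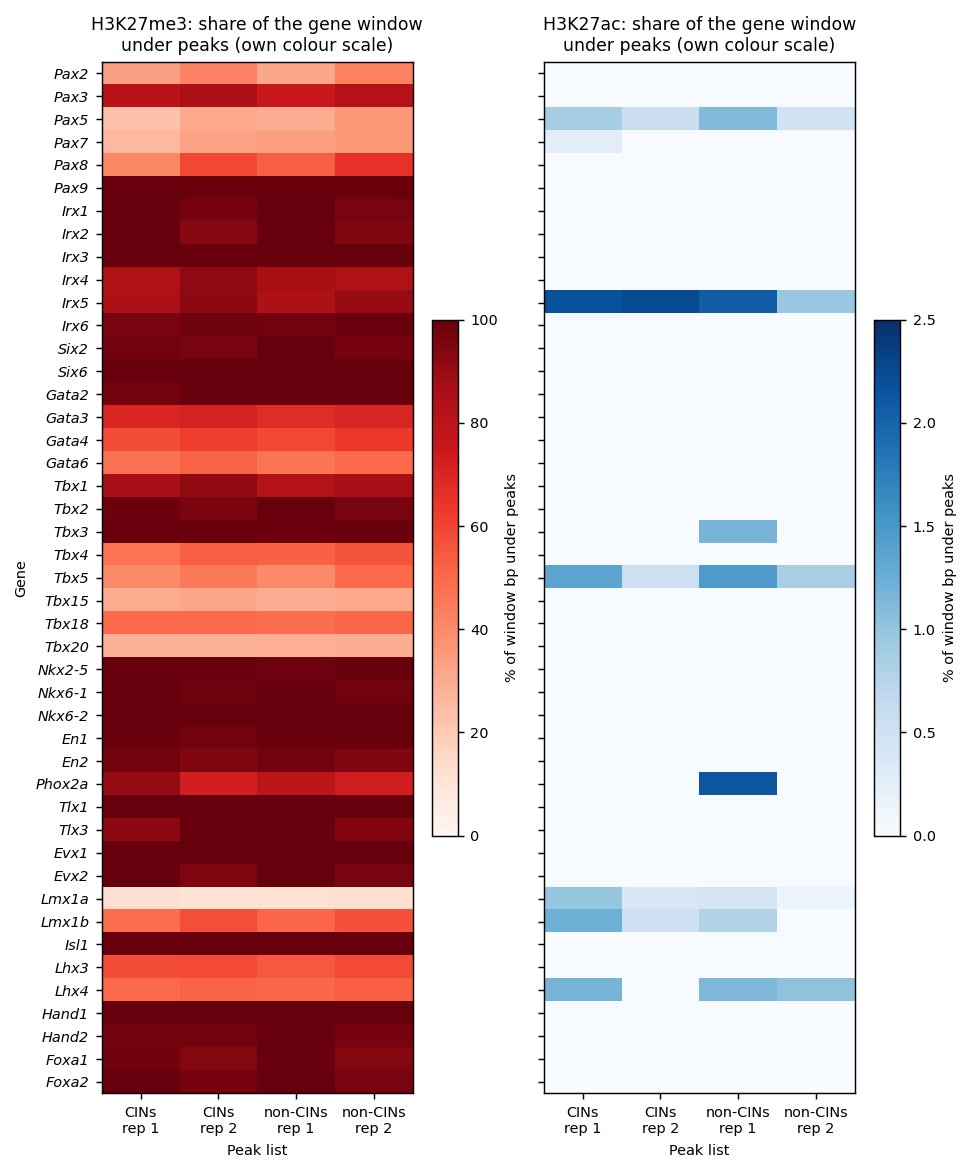
Share of each gene window under H3K27me3 peaks (left, 0 to 100%) and H3K27ac peaks (right, 0 to 2.5%) for the 45 members in the 8 lists. H3K27me3 is present in every cell of the left panel, and H3K27ac appears in 9 members and covers at most 2.24% of a window.

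In members with long windows a larger share was covered at the 5′ end than in the rest. In 18 members the window was longer than 20 kb. Their first 20 kb were covered to a median of 94.3% and the rest to a median of 22.8%, with the first part higher in all 4 lists in 17 of 18. *Pax9*, a regulator of pharyngeal pouches and teeth, was the exception, with 100 and 98.3%. Of the 3130 genes of any kind with H3K27me3 in all 4 lists and a window of that length, 74.9% had the first part higher in all 4 lists, with medians of 10.2 and 0.236%. *Gata6* (heart and endoderm), *Tbx20* (heart) and *Tbx18* (pericytes and heart) carried almost nothing beyond 20 kb, at 0, 0.337 and 1.12%, whereas *Pax3* was still covered to 76.2% there.

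The 5 members with the longest mean H3K27me3 coverage were *Pax3*, *Pax5*, *Gata4*, *Lmx1b* and *Tbx15*. *Pax3*, which acts in neural crest and muscle precursors, had 81384, 85505, 76454 and 83041 bp. *Pax5*, known in B cells and at the midbrain-hindbrain border, had 43558, 58705, 56336 and 68199 bp. *Pax3* was covered over 75.8 to 84.8% of its window and *Pax5* over 22.8 to 35.8%, so its length came with a window of 190731 bp against 100868 bp for *Pax3*.

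*Gata4*, a heart and endoderm factor, had 44742, 47764, 45926 and 49400 bp. *Lmx1b*, which acts in the dorsal limb and in serotonergic neurons, had 40879, 48305, 43080 and 47996 bp, and *Tbx15*, a skeletal and skin factor, had 35354, 37227, 35208 and 36625 bp. In all 5 genes replicate 2 was higher than replicate 1 in both populations, and the CIN and non-CIN values overlapped.

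The 5 shortest were *Phox2a*, *Lhx3*, *Tlx3*, *Nkx6-2* and *Hand2*. Their windows were 7838 to 9414 bp, except that of *Lhx3*, which was 13078 bp and was covered to a mean of 57.3%. *Phox2a*, needed for noradrenergic and autonomic neurons, had 8530, 6810, 7526 and 6842 bp. *Lhx3* had 7518, 7642, 7200 and 7637 bp, and *Tlx3*, a selector of dorsal horn neurons, had 7204, 7821, 7785 and 7398 bp. These values overlapped between populations in each gene. *Nkx6-2*, a ventral neural tube factor, had 8422 bp in each list, the length of its window. *Hand2*, which acts in heart, limb and sympathetic neurons, had 8432, 8426, 8651 and 8356 bp.

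Among the members with the shortest coverage, the strength of the peaks varied. The median rank of the strongest peak was 403.5 at *Phox2a*, 395 at *Lhx3* and 266.5 at *Nkx6-2*, among the worst of the 45 genes. At *Tlx3* it was 140.5. The strongest peak at *Hand2* ranked 27, 10, 7 and 11 in the 4 lists, the best median rank of the 45 genes. When peaks 500 bp or less apart were joined, the stretch that held it was 49535, 51822, 50444 and 51975 bp long and so reached far past the window of 8651 bp. Next by median rank came *Tbx20* and *Evx2* (best ranks 11 and 12), and *Irx6* had the worst rank, 778.

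*Evx2*, which adjoins the HoxD cluster, lay in a joined stretch of 117084, 48895, 116917 and 63044 bp. This was the longest of any member in both replicate 1 lists, whereas *Pax3* had the longest in both replicate 2 lists, at 67423 and 67380 bp. The *Evx2* stretch was longer in replicate 1 than in replicate 2 of both populations, and it held the TSSs of 10 protein-coding genes in replicate 1 and of 7 in replicate 2, *Hoxd8* to *Hoxd13* among them in each. *Six6* and *Gata3* shared their stretch with uncharacterised neighbours, and no other member's stretch held a second protein-coding TSS. *Irx1*, *Irx2* and *Irx4* on chromosome 13, *Irx3*, *Irx5* and *Irx6* on chromosome 8, *Tbx3* and *Tbx5* on chromosome 5, and *Tbx2* and *Tbx4* on chromosome 11 are neighbours, so that these members share a region although their stretches stayed apart. *Pax2*, which ends at 44837871 on chromosome 19, and *Tlx1*, which starts at 45150680, also lie close together.

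Promoter sequences, 250 bases before to 50 after a start in RefSeq (GRCm38.p6, the assembly of mm10), were at hand for 33 of the 45 members. In 24 of the 33 the whole 300 bases lay under H3K27me3 in all 4 lists, as in 3.4% of the 16521 promoters of all genes. The RefSeq start lay a median of 20 bases from the start in the gene annotation that set the windows, but over 1 kb away in *Pax9*, *Gata3*, *Tbx4*, *Nkx2-5* and *Lhx4*, by up to 11434 bases, so for these 5 the sequence belongs to another start of the gene. They held a median of 19 CG dinucleotides (7 to 40), with 61.7% G or C, against 14 and 57% in the promoters of all 16521 genes with a sequence and 17 and 60.7% in those of 3395 genes with H3K27me3 in all 4 lists. At least 10 CG were found in 30 of the 33 (90.9%) and in 59.2% of all. The letters TAATTA, a core that many homeodomain proteins bind and that reads the same on both strands, occurred in 1 of the 33 (3.03%), the promoter of *Hand2*, and in 4.6% of all promoters.

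The promoters of 2 members that also carried H3K27ac (*Pax5* and *Lmx1a*) and of 2 of the best ranked members (*Hand2* and *Evx2*) are shown, 5′ to 3′ on the strand of the gene, because all 300 bases of each lay under H3K27me3 in all 4 lists. Capitals mark CG dinucleotides.
Pax5 promoter, chr4:44710645-44710944 (-): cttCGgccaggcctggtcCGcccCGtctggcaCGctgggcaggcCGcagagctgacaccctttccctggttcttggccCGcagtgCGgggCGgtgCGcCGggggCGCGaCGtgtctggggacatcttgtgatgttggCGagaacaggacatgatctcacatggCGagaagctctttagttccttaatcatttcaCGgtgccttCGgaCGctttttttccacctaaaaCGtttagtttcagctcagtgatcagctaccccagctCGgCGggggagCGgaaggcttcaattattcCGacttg
Lmx1a promoter, chr1:167689308-167689607 (+): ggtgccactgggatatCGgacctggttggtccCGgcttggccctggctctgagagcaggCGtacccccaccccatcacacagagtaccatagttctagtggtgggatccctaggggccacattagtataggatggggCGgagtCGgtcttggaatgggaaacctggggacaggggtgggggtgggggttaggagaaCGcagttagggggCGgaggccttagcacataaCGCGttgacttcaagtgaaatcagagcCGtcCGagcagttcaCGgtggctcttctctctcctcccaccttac
Hand2 promoter, chr8:57320733-57321032 (+): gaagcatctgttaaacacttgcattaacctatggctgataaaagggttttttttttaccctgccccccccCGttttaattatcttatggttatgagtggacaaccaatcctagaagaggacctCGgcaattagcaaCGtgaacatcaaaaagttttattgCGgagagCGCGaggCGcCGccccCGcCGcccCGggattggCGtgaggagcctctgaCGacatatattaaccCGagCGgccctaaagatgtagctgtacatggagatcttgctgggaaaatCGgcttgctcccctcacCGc
Evx2 promoter, chr2:74659508-74659807 (-): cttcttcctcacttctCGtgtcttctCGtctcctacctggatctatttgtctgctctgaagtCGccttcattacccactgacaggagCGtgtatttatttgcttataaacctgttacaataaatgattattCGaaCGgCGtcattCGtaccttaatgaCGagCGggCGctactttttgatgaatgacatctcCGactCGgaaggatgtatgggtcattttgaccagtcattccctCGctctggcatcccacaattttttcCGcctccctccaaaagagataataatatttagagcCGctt
They held 23, 12, 17 and 16 CG. The RefSeq starts used for *Pax5* and *Lmx1a* lie 207 and 321 bases from the annotated start.

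H3K27ac was found in few members. In 36 of the 45 no H3K27ac list had a peak in the window, as in 33.1% of all genes (7261). *Pax7*, *Tbx3* and *Phox2a* had a peak in exactly 1 list, and 6 members had peaks in 2 or more. *Pax5*, *Irx5*, *Tbx5*, *Lmx1a* and *Lmx1b* had H3K27ac in both CIN lists (5 of 45, against 59.6% of all genes), and *Pax5*, *Irx5*, *Tbx5*, *Lmx1a* and *Lhx4* in both non-CIN lists (5 of 45, against 58.5%). Since all members had H3K27me3, the same genes carried both marks in both lists of a population, 5 of 45 in CINs and 5 of 45 in non-CINs, where 14.2 and 14.4% of all genes did.

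Where acetylation occurred it was small and away from the TSS. *Tbx3* was the sole member with H3K27ac within 1 kb of its TSS in any list (55.5% of all genes had it), through 1 peak of 224 bp at 163 to 386 bp upstream in non-CIN replicate 1, which was under H3K27me3 in all 4 lists. The 37 H3K27ac peaks in the members' windows fell into 17 elements of overlapping peaks. Of these, 4 were found in all 4 lists, 2 in 3 lists, 2 in 2 lists and 9 in 1 list. H3K27me3 of the same population and replicate touched 7 of the 37 peaks, and 10 of the 17 elements had no H3K27me3 in any list.

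**Figure D3:**
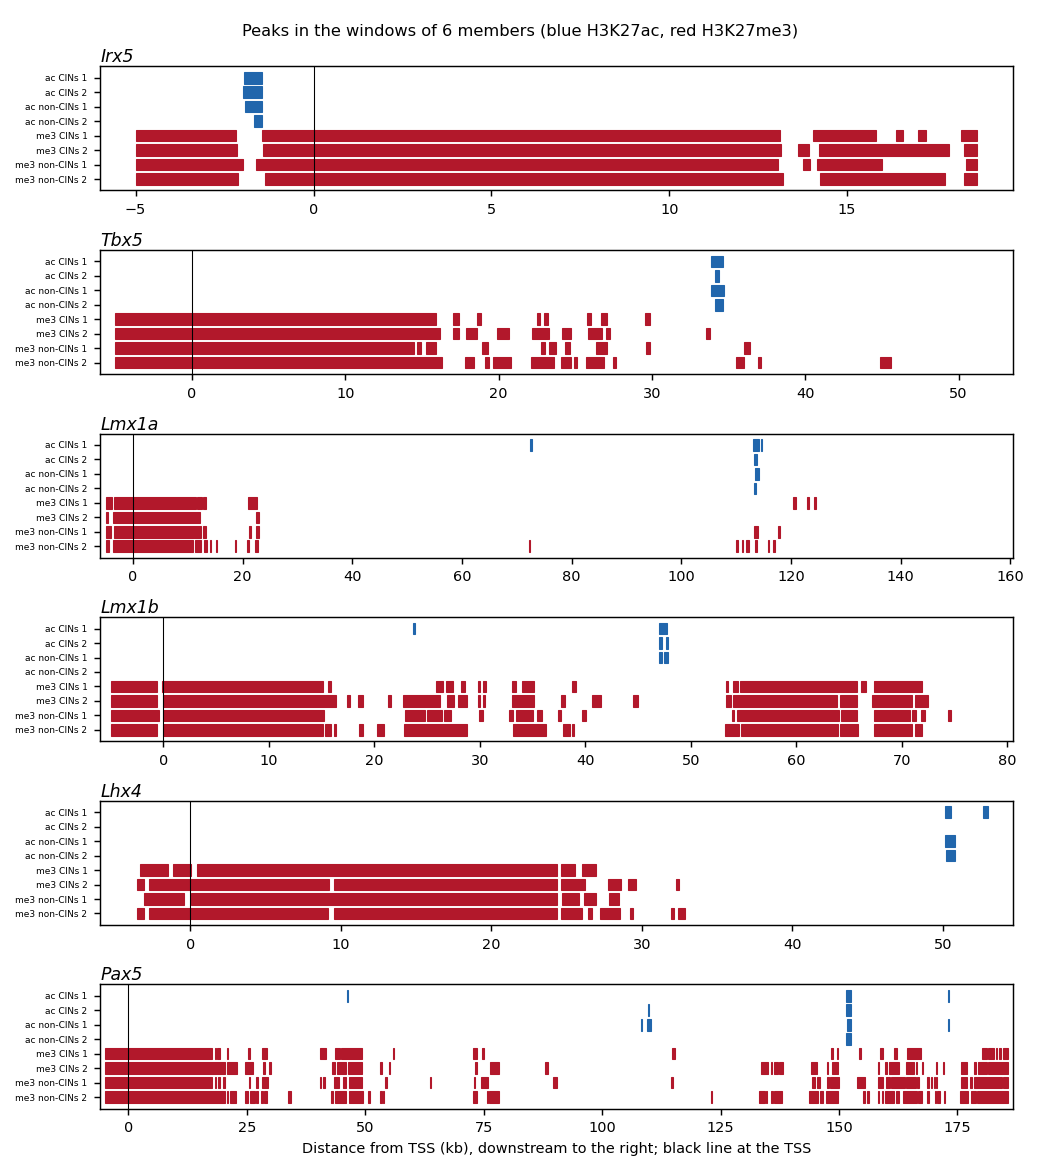
H3K27ac (blue) and H3K27me3 (red) peaks of the 8 lists along the windows of the 6 members with H3K27ac in 2 or more lists, by distance from the TSS in kb. H3K27ac falls in a gap of the H3K27me3 at *Irx5* and lies beyond its 5′ block in the other 5 genes.

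The 5 elements found in at least 3 lists that lie outside annotated UTRs are shown, since they recurred in the most lists. The sixth such element, in the last exon of *Lhx4*, and both elements of *Pax5* found in 2 lists are not shown. Each is the stretch shared by the lists that called the element, the longer of 2 such stretches for *Lmx1b*, or its central 300 bases, from mm10 on the strand of the gene, with CG dinucleotides in capitals.
Irx5 element, chr8:92355944-92356173 (+): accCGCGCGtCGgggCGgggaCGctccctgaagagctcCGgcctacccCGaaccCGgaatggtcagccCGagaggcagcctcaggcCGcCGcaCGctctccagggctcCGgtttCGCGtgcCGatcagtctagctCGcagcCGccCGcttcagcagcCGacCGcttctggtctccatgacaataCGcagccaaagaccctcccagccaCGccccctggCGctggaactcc
Lmx1a element, chr1:167802645-167802799 (+): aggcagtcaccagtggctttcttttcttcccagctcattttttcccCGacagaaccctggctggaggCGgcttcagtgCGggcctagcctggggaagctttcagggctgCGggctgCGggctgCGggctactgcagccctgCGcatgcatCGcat
Tbx5 element, chr5:119866791-119867070 (+): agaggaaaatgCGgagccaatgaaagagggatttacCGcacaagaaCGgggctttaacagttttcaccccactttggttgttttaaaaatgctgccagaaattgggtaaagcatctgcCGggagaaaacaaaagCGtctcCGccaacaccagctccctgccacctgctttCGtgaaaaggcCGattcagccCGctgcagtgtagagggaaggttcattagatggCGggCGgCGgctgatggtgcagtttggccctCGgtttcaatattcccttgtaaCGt
Pax5 element, chr4:44558307-44558606 (-): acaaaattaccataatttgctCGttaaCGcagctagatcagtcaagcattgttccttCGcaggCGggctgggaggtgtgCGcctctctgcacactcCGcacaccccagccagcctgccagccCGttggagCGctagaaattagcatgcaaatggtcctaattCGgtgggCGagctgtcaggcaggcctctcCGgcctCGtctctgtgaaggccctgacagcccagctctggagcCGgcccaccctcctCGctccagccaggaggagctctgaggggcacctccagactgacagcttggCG
Lmx1b element, chr2:33593278-33593478 (-): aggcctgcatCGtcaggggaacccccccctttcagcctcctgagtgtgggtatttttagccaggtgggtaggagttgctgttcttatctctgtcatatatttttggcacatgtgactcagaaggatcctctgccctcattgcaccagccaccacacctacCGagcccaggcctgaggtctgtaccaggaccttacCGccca
The shown stretches held 25, 8, 14, 15 and 3 CG, and none held TAATTA.

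*Irx5*, a retina and heart factor of the Iroquois family, had 1 element 1.45 to 1.98 kb upstream of its TSS, over the annotated start of the noncoding gene *Crnde*. Its H3K27ac covered 516, 530, 489 and 230 bp, at percentiles 65.8, 68.2, 80.2 and 78.5. Both CIN lists were the longer and both non-CIN lists the higher in percentile, so the populations did not overlap in either measure and differed in opposite directions. H3K27me3 flanked the element, and touched it for 9 bp in CIN replicate 1 and 161 bp in non-CIN replicate 1. On the upstream side the next H3K27me3 peak ended 12 to 196 bp away in the 4 lists. The window of *Irx5* was covered by H3K27me3 to a mean of 87.8%.

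*Lmx1a*, a regulator of the roof plate and of midbrain dopaminergic neurons, had its main element in an intron 113 to 114 kb downstream of the TSS. H3K27ac covered 1029, 636, 703 and 252 bp of it, at percentiles 87.3, 66.9, 64.5 and 31.5. Both CIN lists stood above both non-CIN lists in percentile (means 77.1 and 48.0, ratio 1.61), although the values 66.9 and 64.5 were close and the replicates of each population lay further apart than that. H3K27me3 covered 629 and 402 bp of the element in the non-CIN lists and 0 bp in both CIN lists. The nearest H3K27me3 peak was 6.29 kb away in CIN replicate 1 and 90.2 kb away in CIN replicate 2. Over the whole window H3K27ac covered 1636, 636, 703 and 252 bp, which overlapped between the populations.

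*Tbx5*, required for heart and forelimb, had 1 intronic element 33.9 to 34.7 kb downstream of its TSS. Its H3K27ac covered 782, 305, 839 and 498 bp at percentiles 59.4, 22.5, 55.1 and 31.2. The replicates differed more than the populations, with replicate 1 higher in both. No H3K27me3 touched it in any list, although a peak came within 58 bp in CIN replicate 2.

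*Pax5* had 5 elements, of which the intronic one at 151 to 153 kb downstream was called in all 4 lists, with 1047, 867, 897 and 915 bp at percentiles 76.6, 66.7, 72.0 and 61.9. The populations overlapped in both measures. It was free of H3K27me3 in all lists, with the nearest peak 1.21 to 1.65 kb away, inside a gene that carried H3K27me3 over 29.7% of its window on average.

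*Lmx1b* had an intronic element 47.0 to 47.8 kb downstream, with 813, 436 and 660 bp in CIN replicates 1 and 2 and non-CIN replicate 1 and no peak in non-CIN replicate 2. It lay beyond the 5′ block, between further H3K27me3 peaks, and at least 1.94 kb from H3K27me3 in each list. Its percentiles were low, at 36, 18.6 and 47.3. Over the whole window, *Lmx1b* H3K27ac covered 1035, 436, 660 and 0 bp.

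*Lhx4*, a motor neuron and pituitary factor, had an element in the untranslated part of its last exon, 50.1 to 50.8 kb downstream, with 376, 0, 666 and 596 bp at percentiles of 38.3, 25.9 and 26.0 where called. The absence of a peak in CIN replicate 2 is what kept *Lhx4* out of the CIN count. H3K27me3 was 17.3 to 23.2 kb away.

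The remaining acetylated members had 1 peak each, *Tbx3* as given above. At *Pax7*, a neural crest and muscle factor, CIN replicate 1 had a peak of 267 bp at percentile 63.6 in an intron. At *Phox2a*, non-CIN replicate 1 had a peak of 200 bp at percentile 5.08.

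The comparison between CINs and non-CINs asked whether any of these loci differ between interneurons and the other cortical cells. The covered length of each gene in log2(bp + 500) was fitted with limma, with population and replicate number as terms, over all genes with a peak in at least 2 of the 4 lists of a mark, and p values were adjusted by Benjamini-Hochberg over those genes. Lists of the same number deviated together (the differences between replicates correlated across the 7274 genes tested for H3K27me3 with Pearson's r of 0.709 between the populations and across the 13881 tested for H3K27ac with 0.427, a description). Over the 6 members tested for H3K27ac this value was -0.236. With 2 lists against 2 the smallest two-sided p of an exact permutation test is 0.333, so the fit borrows its spread from all genes.

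For H3K27me3, limma called none of the 45 members at an adjusted p under 0.05, and none of the 7274 genes in either direction (0% higher in CINs and 0% higher in non-CINs). At an unadjusted p under 0.05 there were 0 members higher in CINs and 2 higher in non-CINs, and 328 and 608 among all genes tested. The members' differences, CIN minus non-CIN on the log2 scale, ran from -0.29 to 0.08 with a median of 0, where the median over all genes tested was -0.04. In 31 of 45 members the 2 replicates differed more than the 2 populations, near the 69.7% of all genes tested. Scaling each list to one total covered length moved the median of all genes to 0.08 and that of the members to 0.17, with again none called. In that fit 42 of the 45 were higher in CINs, and 14 higher in CINs and 0 in non-CINs had an unadjusted p under 0.05, as did 705 and 499 of all genes tested. The 42 include the 7 members covered throughout in every list, which the scaling alone placed at 0.17 to 0.18, and a direction for the group depends on the scaling.

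**Figure D4:**
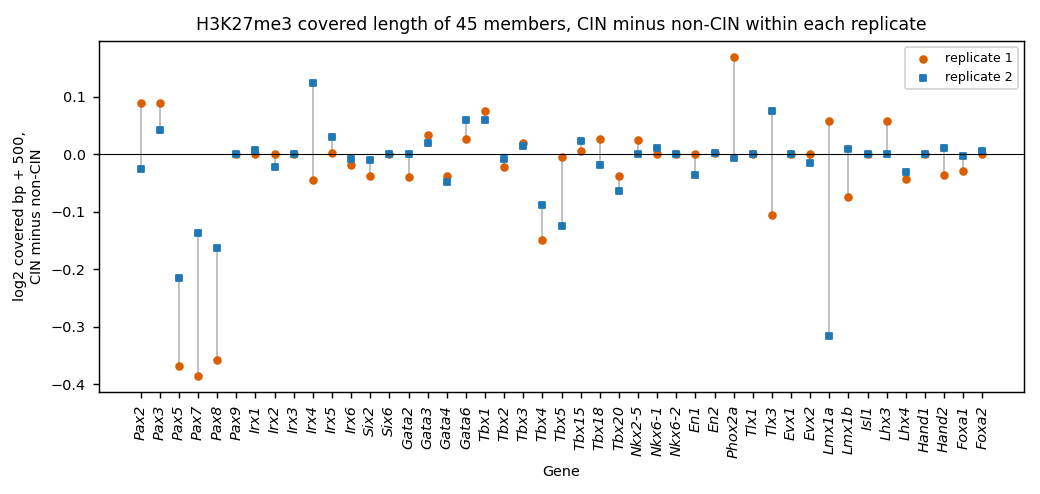
Difference in H3K27me3 covered length between CINs and non-CINs, as log2(bp + 500), for the 45 members, within replicate 1 (circles) and replicate 2 (squares). Most points sit near 0, and *Pax5*, *Pax7* and *Pax8* are below 0 in both replicates.

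The lowest values belonged to *Pax5*, *Pax7* and *Pax8*, which are named here after their values were seen. *Pax7* had 25793, 32874, 33858 and 36199 bp, so both non-CIN lists were above both CIN lists. *Pax8*, a thyroid and kidney factor, had 24619, 35291, 31670 and 39552 bp, higher in non-CINs within each replicate but overlapping across them, as was *Pax5*. By limma the difference was -0.29 ± 0.06 (SE) for *Pax5* (adjusted p = 0.348), -0.26 ± 0.08 for *Pax7* (adjusted p = 0.404) and -0.26 ± 0.07 for *Pax8* (adjusted p = 0.362), none past the threshold. Over 13 alternatives the adjusted p of *Pax5* ran from 3.18e-08 to 1. Under the list scaling the difference was -0.11 at *Pax5*, -0.084 at *Pax7* and -0.082 at *Pax8*. With 1 list left out the difference ran from -0.50 to -0.078 at *Pax5*, from -0.43 to -0.090 at *Pax7* and from -0.52 to -0.0042 at *Pax8*, in each gene smallest in size without CIN replicate 1 and largest without CIN replicate 2. The lowest adjusted p comes from the fit that adds the 14637 genes with a peak in fewer than 2 lists, in which these 3 genes alone of the 45 were called and in which 503 of all 21911 genes were called higher in non-CINs (2.3%) and 196 higher in CINs (0.895%).

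By simple separation, in which both lists of a population lie above both of the other, H3K27me3 covered length was higher in CINs in 1 member (*Tbx3*) and in non-CINs in 2 (*Pax7* and *Tbx20*), against 9 and 13.7% of the genes tested. *Tbx3*, which acts in limb, heart and breast, had 19056, 19056, 18795 and 18849 bp, which is its whole window in CINs. *Tbx20* had 17120, 17235, 17587 and 18041 bp. The ratios of the larger to the smaller population mean were 1.01 and 1.04. Within replicates, 9 members had more in CINs in both and 12 had more in non-CINs in both, where 20.5 and 31.2% of the genes tested did.

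The percentile of the strongest H3K27me3 peak was higher in both CIN lists in 2 members, *Irx4* and *Lhx3* (11.8% of genes tested), and higher in both non-CIN lists in 15 (33.3% of the members, against 17% of genes tested). The differences between population means ran from -0.17 to 0.33 percentile points, CIN minus non-CIN. The non-CIN lists were longer (45081 and 42575 peaks against 38158 and 36662), so that the same rank near the top gives a higher percentile there. By the rank itself, an alternative chosen after seeing the data, 5 members stood higher in both CIN lists (*Pax5*, *Irx4*, *Irx6*, *Phox2a* and *Lhx3*) and 9 in both non-CIN lists, all 9 among the 15. Of all genes tested 18.8 and 10.4% did. By either measure more members stood higher in non-CINs than in CINs, but the count fell from 15 to 9 by rank. It carries no test for the group. *Irx4* stood at 99.8, 99.7, 99.5 and 99.3, and *Lmx1a* at 99.6, 99.7, 99.8 and 99.9. By limma on the percentile no member was called.

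For H3K27ac, 6 members had peaks in enough lists to be tested, among 13881 genes, and the other 39 did not. None was called, where limma called 138 genes higher in CINs (0.994%) and 16 higher in non-CINs (0.115%). At an unadjusted p under 0.05 there were 2 members higher in CINs, *Lmx1a* and *Lmx1b*, and 0 higher in non-CINs, and 1418 and 1217 among all genes tested. *Lmx1a* differed by 0.71 ± 0.17 (SE, log2, CIN minus non-CIN, adjusted p = 0.131 by limma) and *Lmx1b* by 0.65 ± 0.22 (adjusted p = 0.226). Over 13 alternatives the adjusted p of *Lmx1a* ran from 0.035, with lists scaled to one total, to 1, and that of *Lmx1b* over 12 ran from 0.106 to 1. With 1 list left out the difference ran from 0.26 (without CIN replicate 1) to 1.17 (without CIN replicate 2) at *Lmx1a* and from 0.047 (without non-CIN replicate 2) to 1.26 (without non-CIN replicate 1) at *Lmx1b*, so single lists set their size. With a stricter peak threshold (−log10 q of at least 4) the difference at *Lmx1b* changed sign, to -0.146. Without the replicate block, limma called 5 and 0 of all genes and none of the members, 0 of which then had an unadjusted p under 0.05, with an adjusted p of 0.698 for *Lmx1a*. Of the marker sums given above, those of pallial and striatal projection neurons were higher in CINs, and that of astrocytes and radial glia was higher in non-CINs. Much of the pallial sum in CINs lay at *Bcl11b*. Of the 6 striatal markers, 3 had H3K27ac in both CIN lists and 2 in both non-CIN lists. The part of other cells in the result was not tested.

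Covered length of H3K27ac separated the populations at *Irx5* alone, higher in CINs. This was 1 of the 6 members tested (16.7%), near the 19.1% of all genes tested, and in none of the 6 was it higher in both non-CIN lists (19% of all). The 36 members without any H3K27ac peak could not separate. The percentile of the strongest H3K27ac peak separated them at *Lmx1a*, higher in CINs (1 of 6, against 22% of genes tested), and at *Irx5*, higher in non-CINs (1 of 6, against 16.5%). The ratio of means was 1.61 at *Lmx1a* and 1.18 at *Irx5*. By limma on the covered length *Irx5* differed by 0.27 ± 0.22 (adjusted p = 0.598).

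Other lists of regulators, fixed by name, give a scale for these counts. Among 33 other genes of the same families, 28 had H3K27me3 in all 4 lists, and the 5 without were *Six5*, *Gata1*, *Tbx6*, *Tbx10* and *Tbx19*. H3K27ac was in both CIN lists in 6 of them and in both non-CIN lists in 9. The acetylated ones included *Pax6* and *Lhx2*, regulators of cortical progenitors, with 22669, 20433, 21680 and 21428 bp for *Pax6*, and 15090, 11632, 15115 and 15255 bp for *Lhx2*. These lengths exceed the largest value of any member, 2122 bp at *Pax5*.

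Among 30 forebrain regulators, 28 had H3K27me3 in all 4 lists, while H3K27ac was in both CIN lists in 25 and in both non-CIN lists in 19. Their median H3K27me3 covered length was 9005.5 bp in CINs and 8943 bp in non-CINs, against 13108 and 12482.5 bp in the members (means of both lists). Their median H3K27ac covered length was 4991 bp in CINs and 1569 bp in non-CINs, against 0 and 0 in the members. H3K27me3 was thus called at nearly all genes of both lists, and H3K27ac at most forebrain regulators and few members. These are counts over lists chosen by name and carry no test.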

How the data were processed

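Broad peak lists for 8 ChIP samples were analysed. Inputs entered only through the authors' peak calling. Per the study's methods, reads were mapped to mm10 by the authors (BWA 0.7.15) and filtered at a mapping quality of 30, and each replicate was then called on its own with MACS2 in broad mode, using its input as control, 200 bp fragments and no local background. The submitters' processing notes give MACS2 2.2.7 and deepTools 3.4.3. The study's text names another MACS2 version. The deposited fold enrichment is a ratio over the input signal. The deposited −log10 p and −log10 q values and the score, a scaled q value, are those of the peak caller. Of these, −log10 q set a stricter threshold, and p and score gave no result. Read counts were not used here.

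Genes came from GENCODE vM21 basic, 1 row for each symbol. A peak counted when 1 bp lay in the window. Covered length and percentile within the list were computed with Python 3.11.15 and NumPy 2.4.6, and sequences were read with pysam 0.24.0. Differences were fitted with limma 3.58.1 in R 4.3.3 (empirical Bayes with trend) on log2(bp + 500), with the replicate number as a block since the study compared populations within replicates. The labels do not say whether replicates of one number share animals. The replicates are biological replicates from pooled litters. Interval sums were checked against bedtools 2.31.1 and the fit was tested on simulated data.

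Genes are named by these rules: members with no H3K27me3 in a population, members with H3K27ac in both lists of a population, members whose populations separate by a ratio of at least 1.5, and the 5 highest and 5 lowest by mean H3K27me3 covered length. Others are named where a count of 5 or fewer falls outside these rules or as examples. The members and lists were chosen with earlier results of these data known. Alternatives were other windows, thresholds, overlaps, pseudocounts, filters, scalings and left-out lists.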

Additional observations from a re-analysis of the deposited data

How the results depend on the processing

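All 45 members kept H3K27me3 in all lists, and none lacked it in a population, under each of the 8 alternatives tried for those counts (promoter or gene body windows, 20 kb on each side, −log10 q of at least 4, 500 bp covered, the strongest 30000 peaks, and either replicate left out). The count with H3K27ac, and with both marks, in both lists of a population moved with the definition. With −log10 q of at least 4 it was 3 in CINs. With promoters of 1 kb on each side it was 0 in both populations, with 20 kb on each side it was 9 in CINs and 11 in non-CINs, with 500 bp covered it was 3 and 2, and with the strongest 30000 peaks it was 3 and 2. Leaving out a replicate gave 5 to 7 in CINs and 5 to 8 in non-CINs, the higher values without replicate 2. The median H3K27me3 covered length over the members was 8992.5 bp in CINs and 9143 bp in non-CINs over gene bodies, 29641 and 29951.5 bp with 20 kb on each side, and 14150.9 and 11874.9 bp with lists scaled to one total.

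Without the replicate block 0 members were called for either mark. With no filter 3 members were called higher in non-CINs for H3K27me3 (*Pax5*, *Pax7* and *Pax8*), as were 503 of all 21911 genes, with 196 higher in CINs, since 14637 more genes then entered the fit, and with scaled lists 1 member (*Lmx1a*, difference 0.69) was called higher in CINs for H3K27ac. Scaling also moved the H3K27ac calls over all genes from 138 and 16 to 1105 and 1006. The H3K27ac difference between populations changed sign at *Pax5* with −log10 q of at least 4 and with the strongest 30000 peaks (0.03 in both) and at *Lmx1b* with −log10 q of at least 4 (-0.146). With 1 list left out it ran from -0.50 to 0.389 at *Pax5*, from -0.52 to 0.149 at *Tbx5* and from -1.18 to 0.0728 at *Lhx4*, so no direction was held there. It changed sign at *Pax5* without CIN replicate 2 (0.173) or non-CIN replicate 1 (0.389), at *Tbx5* without the same lists (0.149 and 0.0256) and at *Lhx4* without CIN replicate 2 (0.0728). In these fits the lone list is assumed to vary like the others.

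The peak lists limit what can be seen. A window already covered throughout cannot show a gain, reads below the caller's threshold leave no value, and with 1 residual degree of freedom per gene the fit has little power for differences of the size seen here.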
